A study of Homo sapiens with 6 samples.

Results

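CEBPD, C3 and ICAM1 are 3 genes of inflammation and the acute phase, taken here by gene name, and selected on their large difference in normalized counts between the groups, from a deposited table of raw counts that holds 2778 features. They were measured in A375, an established human melanoma cell line, in 3 libraries of cells overexpressing cytoglobin (CYGB-OE) and 3 libraries of wildtype cells (WT). Both groups were untreated and share every label but the genotype. The sources used here do not give the promoter of the transgene, the number of clones or an empty-vector control. Messenger RNA was captured through its poly(A) tail.

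CEBPD encodes C/EBP delta, a basic leucine zipper transcription factor that is low in resting cells and rises quickly when interleukin 1, interleukin 6 or bacterial products reach them. C3 encodes the central protein of the complement system, whose cleavage products tag surfaces and attract leukocytes. ICAM1 encodes an adhesion molecule of the cell surface that leukocyte integrins bind. Transcription of all 3 genes is known to respond to inflammatory cytokines, for C3 and ICAM1 through NF-kB and C/EBP factors, and melanoma cells are known to carry ICAM1.

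The table is a selection. On the scale used here the log2 ratios of group means, CYGB-OE over WT, left the stretch between -0.995 and 0.995 empty, and totals of 1533260 to 2801576 counts per library add up these features alone and are not depths. The label check was the CYGB transcript, at 24020, 23160 and 23871 normalized counts in CYGB-OE replicates 1 to 3, against 36.3, 37.1 and 39.3 in WT replicates 1 to 3. CYGB-OE replicate 1 stood apart: the median feature differed by 0.439 and 0.455 log2 units between it and replicates 2 and 3, whereas other pairs within a group differed by 0.173 to 0.187. Every level of the 3 genes below is therefore given for each library. In bulk RNA, fewer cells that express a gene and less RNA per cell cannot be told apart.

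CEBPD (ENSG00000221869) is a single-exon gene on GRCh38 chromosome 8, from 47736909 to 47739086 on the minus strand. Its counts were 529, 360 and 467 in CYGB-OE replicates 1 to 3, against 6296, 7810 and 5350 in WT replicates 1 to 3. Divided by the library factors, these are 564, 402 and 424 normalized counts in CYGB-OE and 6924, 6173 and 5686 in WT. The groups lay far apart and the 3 CYGB-OE libraries lay close together. The mean was 464 ± 87.9 normalized counts in CYGB-OE and 6261 ± 624 in WT (SD, n = 3 each), 13.5-fold lower in CYGB-OE, with a log2 ratio of -3.76 (SE 0.16). All 3 genes were picked for this difference, so the values are a description and no p-value is given for them.

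C3 (ENSG00000125730) lies on GRCh38 chromosome 19, from 6677704 to 6730562 on the minus strand, and its principal transcript has 41 exons. It had 6961, 1290 and 1651 counts in CYGB-OE replicates 1 to 3, against 28097, 37098 and 31019 in WT replicates 1 to 3. The normalized counts were 7425, 1440.5 and 1500.4 in CYGB-OE and 30899, 29321 and 32968 in WT. No CYGB-OE library reached a WT library, but replicate 1 stood 5.05 times above the mean of replicates 2 and 3. The mean was 3455 ± 3438 normalized counts in CYGB-OE and 31063 ± 1829 in WT (SD, n = 3 each), 8.99-fold lower in CYGB-OE. The SD in CYGB-OE was 99.5% of the mean, against 5.89% in WT. The log2 ratio was -3.17 (SE 0.73), and without CYGB-OE replicate 1 it was -4.40.

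ICAM1 (ENSG00000090339) lies on the plus strand of GRCh38 chromosome 19, from 10270835 to 10286615. It had 7758, 2091 and 2590 counts in CYGB-OE replicates 1 to 3, against 27107, 39474 and 28875 in WT replicates 1 to 3. The normalized counts were 8275, 2335 and 2354 in CYGB-OE and 29811, 31199 and 30689 in WT. The pattern was that of C3: a narrow WT group, a pair of like CYGB-OE libraries, and replicate 1 between them at 3.53 times the mean of replicates 2 and 3. The mean was 4321 ± 3424 normalized counts in CYGB-OE and 30566 ± 702 in WT (SD, n = 3 each), 7.07-fold lower in CYGB-OE, with SDs of 79.2% and 2.30% of these means. The log2 ratio was -2.82 (SE 0.56), and without CYGB-OE replicate 1 it was -3.70.

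**Figure D1:**
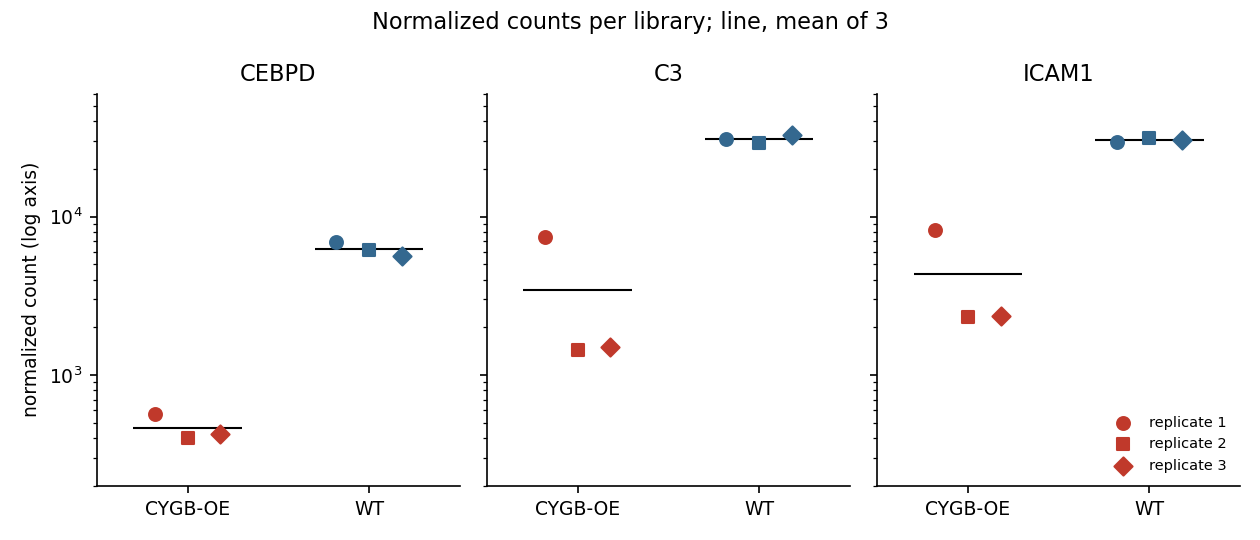
Normalized counts (log axis) of CEBPD, C3 and ICAM1 in the 3 CYGB-OE libraries (red, left in each panel) and the 3 WT libraries (blue); marker shapes give the replicate and lines the group means. CEBPD libraries of CYGB-OE lie between 402 and 564, while C3 and ICAM1 in CYGB-OE replicate 1, at 7425 and 8275, stand between replicates 2 and 3 and the WT libraries.

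The table's background is one-sided: of 2465 features tested, 99.8% passed the threshold of 0.05 in edgeR's quasi-likelihood test with Benjamini-Hochberg adjustment, 71.5% (1762 features) as lower in CYGB-OE and 28.3% as higher. All 3 genes were among those called lower, which follows from how they were chosen. Features with small differences are missing from the table, so calls and p-values of other listed genes are also largely set by that selection. Their WT and CYGB-OE libraries did not overlap, as was so, with CYGB-OE lower, for 70.1% of the features listed. Where the level between the groups is set moves all values: TMM over the table raised all log2 ratios by 1.20, and CEBPD, C3 and ICAM1 then stood at -2.55, -1.96 and -1.62.

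The 3 genes differed from each other in how far CYGB-OE replicate 1 departed from its group. The log2 ratio of replicate 1 over the mean of replicates 2 and 3 was 2.34 for C3, 1.82 for ICAM1 and 0.45 for CEBPD. Among the 1762 lower features the median of this ratio was -0.11, and replicate 1 was the highest CYGB-OE library in 34.4% of them. Only 23 lower features, C3 included, had a ratio as large as that of C3, which is 1.31%. For ICAM1 the share was 2.84% and for CEBPD 21.3%. The CYGB transcript had 23160 to 24020 normalized counts in the 3 CYGB-OE libraries. Its part in the departure of replicate 1 was not tested.

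**Figure D2:**
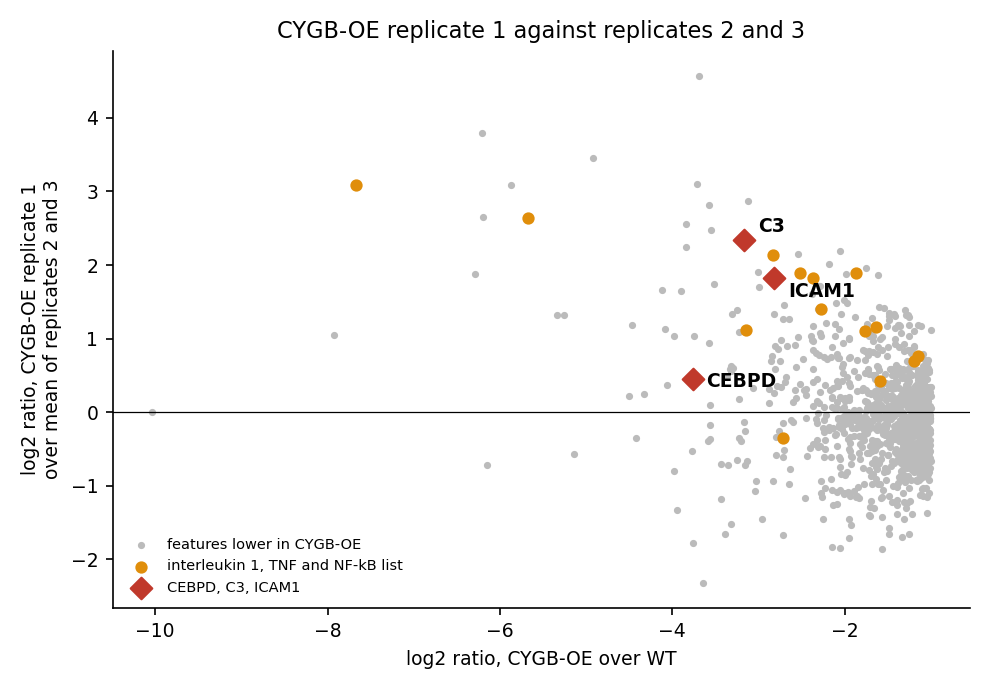
Each grey point is a feature called lower in CYGB-OE with a mean normalized count of at least 50; the x axis is the log2 ratio of CYGB-OE over WT and the y axis the log2 ratio of CYGB-OE replicate 1 over the mean of replicates 2 and 3. C3 and ICAM1 (red diamonds) lie at 2.34 and 1.82 on the y axis among genes of interleukin 1, TNF and NF-kB signalling (orange), and CEBPD lies lower at 0.45.

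Ratios of counts within a library do not depend on the scaling between libraries. There were 13.2, 3.58 and 3.54 C3 counts for each CEBPD count in CYGB-OE replicates 1 to 3, against 4.46, 4.75 and 5.80 in WT replicates 1 to 3. CYGB-OE replicate 1 thus lay above all WT libraries and replicates 2 and 3 below them. ICAM1 counts for each CEBPD count numbered 14.7, 5.81 and 5.55 in CYGB-OE, against 4.31, 5.05 and 5.40 in WT, so the 3 CYGB-OE libraries were higher, replicates 2 and 3 by little. C3 counts for each ICAM1 count numbered 0.897, 0.617 and 0.637 in CYGB-OE, against 1.04, 0.940 and 1.07 in WT. This ratio was lower in every CYGB-OE library than in any WT library, and replicate 1 was the nearest to WT.

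**Figure D3:**
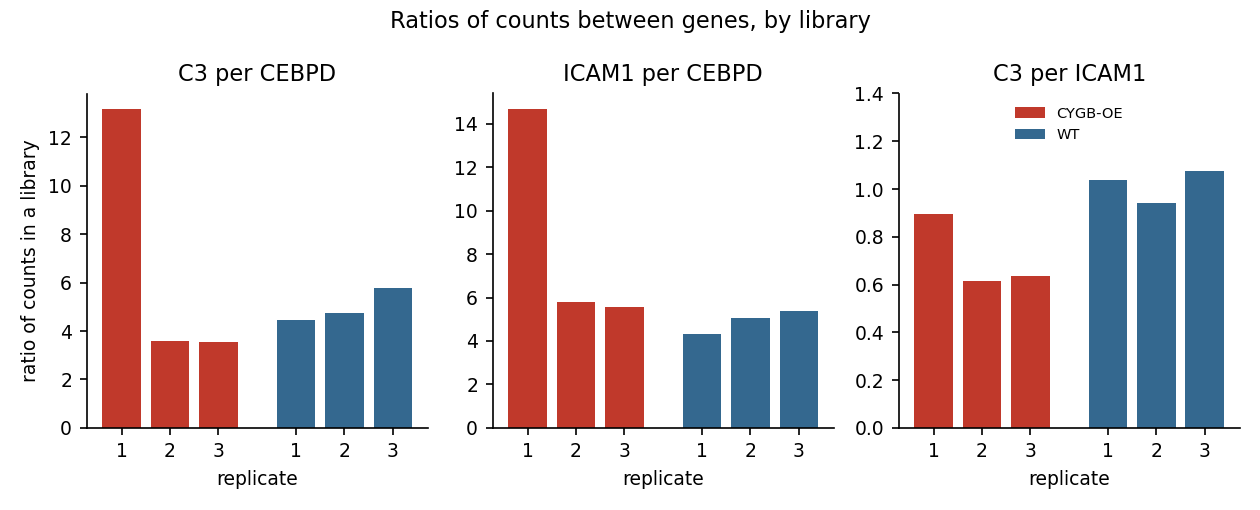
Bars give the ratio of counts of the 2 genes named above each panel in each library, CYGB-OE in red and WT in blue, on axes that start at 0. The C3 per CEBPD ratio is 13.2 in CYGB-OE replicate 1 and at most 5.80 in the other libraries, while C3 per ICAM1 spans 0.617 to 0.897 in CYGB-OE and 0.940 to 1.07 in WT.

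Levels of different genes were compared per kilobase of the merged exons of each gene, which are 8328 bases long for C3, 3706 for ICAM1 and 2178 for CEBPD. ICAM1 was highest in every library, at 1166 ± 924 normalized counts per kilobase in CYGB-OE and 8248 ± 189 in WT (SD, n = 3 each). C3 followed in WT at 3730 ± 220, above CEBPD at 2875 ± 286, with no overlap of their WT libraries. In CYGB-OE replicate 1, C3 had 892 and CEBPD 259 normalized counts per kilobase. In CYGB-OE replicates 2 and 3, C3 had 173 and 180 and CEBPD 185 and 195, so the order of these neighbours turned round. That turn depends on the length used: per kilobase of the principal transcript, 5263 bases long for C3, the levels of C3 were 274 and 285 in those libraries and stayed above CEBPD.

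On chromosome 19, the table held 2 of 10 annotated genes within 100 kilobases of C3 and 2 of 17 within 100 kilobases of ICAM1. Listed features differ by selection, so these say nothing of the region as a whole. AC008760.2, a sense-intronic transcript inside C3, had 29.9, 6.70 and 1.82 normalized counts in CYGB-OE replicates 1 to 3, against 172, 186 and 183 in WT replicates 1 to 3. AC011511.5, which overlaps the end of ICAM1 on the opposite strand, had 27.7, 4.47 and 8.18 in CYGB-OE, against 83.6, 83.8 and 78.6 in WT. Both followed their host in placing CYGB-OE replicate 1 highest of its group. The sources used here do not give the strand setting of the counting. Reads of these features and of C3 or ICAM1 thus cannot be told apart with certainty. The 2 further genes that overlap C3 or ICAM1, GPR108 and AC011511.2, were not in the table. ICAM5, an intercellular adhesion gene downstream of ICAM1 on the same strand, fell (log2 ratio -1.47, SE 0.12; edgeR adjusted p = 1.07e-05), a call that was lost with TMM over the table (-0.27; edgeR adjusted p = 0.0874). It had 922, 1099 and 1159 normalized counts in CYGB-OE, against 3080, 2925 and 2781 in WT. TNFSF14, a TNF family cytokine gene beside C3, had 36.3, 1.12 and 5.45 normalized counts in CYGB-OE, against 57.2, 57.7 and 46.8 in WT, and its call (edgeR adjusted p = 0.0483) was lost with TMM and without any of the 3 WT libraries or CYGB-OE replicate 2 or 3, and its log2 ratio of -1.92 was -3.91 without CYGB-OE replicate 1. None of the 4 annotated genes within 100 kilobases of CEBPD was in the table.

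Genes most alike in profile were sought among 1414 named genes with a mean normalized count of at least 50, by the root mean square difference of log2(normalized count + 1) over the 6 libraries, each profile centred on its WT mean. A gene could pass this limit through its WT libraries alone. The closest to ICAM1 were NFKBIA at 0.14 log2 units, EHF at 0.14, IRAK2 at 0.21, TRAF1 at 0.26 and JAM2 at 0.27. NFKBIA encodes the NF-kB inhibitor IkB-alpha, IRAK2 a kinase of interleukin 1 receptor signalling, TRAF1 an adaptor of TNF receptors, EHF an ETS transcription factor and JAM2 a junctional adhesion molecule. The closest to C3 were CCL20 at 0.24, NKILA at 0.26, NFKBIA at 0.30, MIR3142HG at 0.33 and EHF at 0.36, CCL20 being a chemokine gene and NKILA and MIR3142HG long non-coding RNAs. In CYGB-OE replicates 1 to 3, EHF had 27, 6 and 8 counts, JAM2 29, 13 and 15, and CCL20 38, 9 and 14. The places of these 3 genes thus rest on few counts. NFKBIA had 2573, 595 and 569 normalized counts in CYGB-OE replicates 1 to 3, against 8966, 8745 and 8787 in WT replicates 1 to 3. Like ICAM1 and C3, it showed a narrow WT group with CYGB-OE replicate 1 between it and the other libraries. This likeness follows from how NFKBIA was found.

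The closest to CEBPD were other genes. ASTN1, a neuronal membrane protein gene, lay at 0.24 log2 units, KDR, a receptor of vascular endothelial growth factor, at 0.25, SOD2, the mitochondrial superoxide dismutase, at 0.30, PXDN, a matrix peroxidase, at 0.31 and P2RX7, an ATP-gated channel, at 0.34. The 5 genes closest to CEBPD shared no gene with the lists of C3 and ICAM1, which shared NFKBIA and EHF. SOD2 had 2097, 944 and 1111 normalized counts in CYGB-OE replicates 1 to 3, against 22608, 20539 and 22246 in WT replicates 1 to 3. KDR had 10.7, 8.93 and 10.9 in CYGB-OE, against 126, 126 and 114 in WT. ASTN1 had 16, 7 and 10 counts in CYGB-OE replicates 1 to 3, so its place and that of KDR rest on few counts.

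Of the 3 genes, only ICAM1 had a promoter among the sequences used here, so those of C3 and CEBPD were not searched. The ICAM1 promoter is set beside that of NFKBIA, the gene closest to it in profile. RefSeq promoters (GRCh38.p14) were found for ICAM1 and for 12 of the 13 most alike genes, and the 250 bases before the start were searched on both strands for motifs chosen with the ICAM1 promoter known. The kB-type motif GGAANTTCC, the interferon-type motif TTCNNNGAA and the TATAAA box each occurred in ICAM1, and the first and last also in NFKBIA, the last on the opposite strand. Stretches of 30 bases are shown 5′ to 3′ on the strand of each gene, with the motif in capitals.
ICAM1, kB-type, chr19:10270924-10270953, plus strand: gctttagcttGGAAATTCCggagctgaagc
NFKBIA, kB-type, chr14:35404811-35404840, minus strand: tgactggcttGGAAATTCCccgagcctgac
ICAM1, interferon-type, chr19:10271035-10271064, plus strand: ggcgcgaggtTTCCGGGAAagcagcaccgc

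The ICAM1 kB-type match lay 186 to 178 bases before the RefSeq start and the NFKBIA match 81 to 73 bases before it. The matches sit in a run of 13 bases that both promoters share, gcttGGAAATTCC. GGAANTTCC occurred in the same window of 0.826% of 35116 RefSeq promoters, and in none of the other 11 most alike genes with a promoter. The interferon-type match of ICAM1, 75 to 67 bases before the start, belongs to a motif found in 6.57% of promoters, and TATAAA, 30 to 25 bases before the start, to one found in 10.7%. The C/EBP-type motif TTGCNNAA, held by 9.05% of promoters, and the AP-1-type motif TGANTCA, held by 6.57%, were not matched in the ICAM1 window, which says only that these letters are not there. A looser kB-type motif, GGG and CC around any 5 bases, was matched in ICAM1 but occurs in 54.4% of promoters and overlaps GGAANTTCC in NFKBIA. Of the other most alike genes, it was matched in ASTN1, KDR, SOD2, PXDN, P2RX7, CCL20, MIR3142HG, EHF and IRAK2. GENCODE release 29 also lists an ICAM1 transcript that starts upstream of this window, at 10270835. Shared runs of bases were sought for ICAM1 and NFKBIA alone, and common control of these genes was not tested.

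The table held 4 of 7 C/EBP genes on a list, CEBPD among them. The 3 others fell, as did 71.5% of all features tested. Their median log2 ratio was -1.15, against -1.30 for all 2465 features tested. Under TMM over the table only DDIT3 of these stayed below 0 (log2 ratio -0.45, edgeR adjusted p = 0.124). CEBPB, which binds the same DNA motif and pairs with C/EBP delta, had 3640, 2884 and 3032 normalized counts in CYGB-OE replicates 1 to 3, against 6959, 7768 and 6534 in WT replicates 1 to 3. Its log2 ratio was -1.15 (SE 0.12; edgeR adjusted p = 3.30e-05), and 0.046 with TMM over the table. DDIT3, the stress-induced C/EBP partner CHOP, had a log2 ratio of -1.65, and CEBPA, a factor of differentiation, of -1.06, or 0.13 with that TMM scaling.

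Few other acute-phase genes were listed. The table held 4 of 27 on a list. The 3 that were tested fell, as did 71.5% of all features tested. Their median log2 ratio was -2.99, against -1.30 for all features tested. Each stayed below 0 with TMM over the table, where TNFAIP6 and CP kept their calls and SERPINA1 did not. TNFAIP6, a hyaluronan-binding protein induced by TNF, had 13.9, 5.58 and 15.4 normalized counts in CYGB-OE replicates 1 to 3, against 180, 200 and 220 in WT replicates 1 to 3 (log2 ratio -4.07). CP, ceruloplasmin, had 22.4, 3.35 and 9.09 in CYGB-OE, against 96.8, 94.1 and 89.3 in WT (log2 ratio -2.99, or -3.83 without CYGB-OE replicate 1). SERPINA1, alpha-1 antitrypsin, had 149, 20.1 and 45.4 in CYGB-OE, against 301, 454 and 492 in WT (log2 ratio -2.54, or -3.62 without CYGB-OE replicate 1). SAA2, a serum amyloid A gene with a near-identical copy, was not tested. It had 0 counts in all CYGB-OE libraries, against only 13, 28 and 9 in WT replicates 1 to 3. On the scale used here it was at least 15.0-fold lower in CYGB-OE, against a floor of 3 counts over the group. TMM over the table would make this bound smaller.

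Beside C3 stood few complement genes. The table held 3 of 26 complement components on a list, C3 among them. Beside 71.5% of all features tested called lower, the 2 others fell. These were C1R and C1S, the proteases of the first complement component, which had log2 ratios of -1.48 (SE 0.16; edgeR adjusted p = 3.71e-05) and -2.19 (SE 0.53; edgeR adjusted p = 0.00402). C1S had 42.7, 7.82 and 11.8 normalized counts in CYGB-OE replicates 1 to 3, against 95.7, 113 and 73.3 in WT replicates 1 to 3, so replicate 1 again stood nearest to WT, and the log2 ratio was -3.23 without it. C1R had 223, 156 and 195 in CYGB-OE, against 528, 553 and 524 in WT. With TMM over the table C1R and C1S stayed below 0 but their calls were lost (edgeR adjusted p = 0.187 and 0.171). Of 26 complement regulators and receptors the table held 11, of which 8 fell and 3 rose, beside 71.5% of all features called lower. With TMM the filter left 10, of which 2 were called lower and 3 higher. CSMD1, a membrane protein with complement control domains, had a log2 ratio of -1.14, or 0.061 with TMM. The 3 that rose, named after their values were seen, were CLU, the fluid-phase regulator clusterin (log2 ratio 1.24), C3AR1, the receptor of the C3a fragment (1.70), and CSMD2 (2.29). C3AR1 had 53.3, 41.3 and 24.5 normalized counts in CYGB-OE, against 4.40, 13.4 and 18.1 in WT.

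On a list of 23 adhesion genes that holds ICAM1, the table held 6. The 4 tested beside ICAM1 fell, as did 71.5% of all features tested. Their median log2 ratio was -2.42, against -1.30 for all features tested, and 3 of them were called lower under TMM over the table. NCAM1, a neural adhesion molecule, had a log2 ratio of -4.32 (SE 0.26; edgeR adjusted p = 4.62e-06) and F11R, a junctional adhesion molecule, of -1.61. SELE, endothelial selectin, was not tested. It had 0 counts in CYGB-OE, against only 9, 9 and 7 in WT replicates 1 to 3. On the scale used here it was at least 7.97-fold lower in CYGB-OE, against the same floor, a bound that TMM over the table would make smaller.

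The table held 3 of 7 counter-receptors of ICAM1, and all 3 fell, as did 71.5% of all features tested. ITGAM had 6.40, 0 and 0 normalized counts in CYGB-OE replicates 1 to 3, against 117, 79.8 and 86.1 in WT replicates 1 to 3, and the log2 ratios of ITGAX and ITGB2 were -1.65 and -1.14, that of ITGB2 being 0.060 with TMM over the table, where ITGAM alone kept its call. These 3 genes encode integrin chains of leukocytes that bind ICAM1 and the iC3b fragment of C3.

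The genes that carry interleukin 1 and TNF signals to NF-kB were mostly lower, and most had CYGB-OE replicate 1 nearest to WT, as C3 and ICAM1 did. The table held 16 of 58 on the list. Of these, 15 fell and 1 rose, beside 71.5% of all features tested called lower. The median log2 ratio was -2.07, against -1.30 for all features tested. It was -2.73 without CYGB-OE replicate 1. With TMM over the table, 13 of the 16 were below 0 and 4 were called lower. In 13 of the 15 that fell, CYGB-OE replicate 1 was the highest library of its group, against 34.4% of all lower features. NFKB2, an NF-kB subunit, had 6144, 2181 and 2480 normalized counts in CYGB-OE replicates 1 to 3, against 17812, 16720 and 17543 in WT replicates 1 to 3 (log2 ratio -2.27, or -2.90 without CYGB-OE replicate 1), and its call was lost with TMM. IL1A, interleukin 1 alpha, had 390, 55.8 and 67.3 in CYGB-OE, against 8960, 8462 and 8781 in WT (log2 ratio -5.68, or -7.14 without CYGB-OE replicate 1), and its call held with TMM. TNIP1, which restrains NF-kB, had a log2 ratio of -1.19, or 0.010 with TMM. The gene that rose was TLR4, the receptor of bacterial lipopolysaccharide, with 4229, 2840 and 2915 normalized counts in CYGB-OE, against 1203, 1328 and 1151 in WT (log2 ratio 1.44, SE 0.16; edgeR adjusted p = 5.82e-05); it was named after its value was seen.

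On a further list of 33 NF-kB target genes, the table held 18, of which 17 could be tested. Of these, 15 fell and 2 rose, beside 71.5% of all features tested called lower. The median log2 ratio was -2.29, against -1.30 for all features tested. With TMM the filter left 16, of which 13 were below 0 and 7 were called lower. Replicate 1 was again the highest CYGB-OE library in 13 of the 15 that fell, against 34.4% of all lower features. ZC3H12A, an RNase that degrades inflammatory transcripts, had 893, 241 and 244 normalized counts in CYGB-OE replicates 1 to 3, against 1861, 1857 and 1716 in WT replicates 1 to 3 (log2 ratio -1.98, or -2.90 without CYGB-OE replicate 1), and its call was lost with TMM. The chemokine CXCL2 had 849, 32.4 and 37.3 in CYGB-OE, against 3770, 4706 and 3349 in WT. Its call (log2 ratio -3.69; edgeR adjusted p = 0.0413) was lost with TMM and without any of the 3 WT libraries or CYGB-OE replicate 3, and the log2 ratio was -6.81 without CYGB-OE replicate 1. MMP1 and MMP3, metalloproteinase genes, were the 2 that rose, and MMP1 had 3308, 4385 and 4492 normalized counts in CYGB-OE, against 187, 205 and 203 in WT.

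Interleukin 6, the cytokine best known for driving the acute phase, was close to the floor. IL6 had 1.07, 1.12 and 2.73 normalized counts in CYGB-OE replicates 1 to 3, against 12.1, 9.48 and 13.8 in WT replicates 1 to 3, and was not tested. The table held 7 of 30 genes of the interleukin 6 family and STAT3 signalling, of which 6 could be tested. Of these, 5 fell and 1, CNTF, rose, beside 71.5% of all features tested called lower. The median log2 ratio was -1.36, against -1.30 for all features tested. With TMM 4 were below 0 and none of those passed the threshold. LIF, a cytokine of this family, had 3949, 1648 and 1583 normalized counts in CYGB-OE, against 5857, 5830 and 5465 in WT (log2 ratio -1.26). JUNB, an AP-1 subunit, had 6134, 3292 and 3559 in CYGB-OE, against 10107, 19017 and 9476 in WT (log2 ratio -1.57). IRF1, an interferon-regulated transcription factor, had a log2 ratio of -1.50, and STAT5A one of -1.15, or 0.052 with TMM. Replicate 1 was the highest CYGB-OE library in 4 of the 5 that fell, against 34.4% of all lower features.

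**Figure D4:**
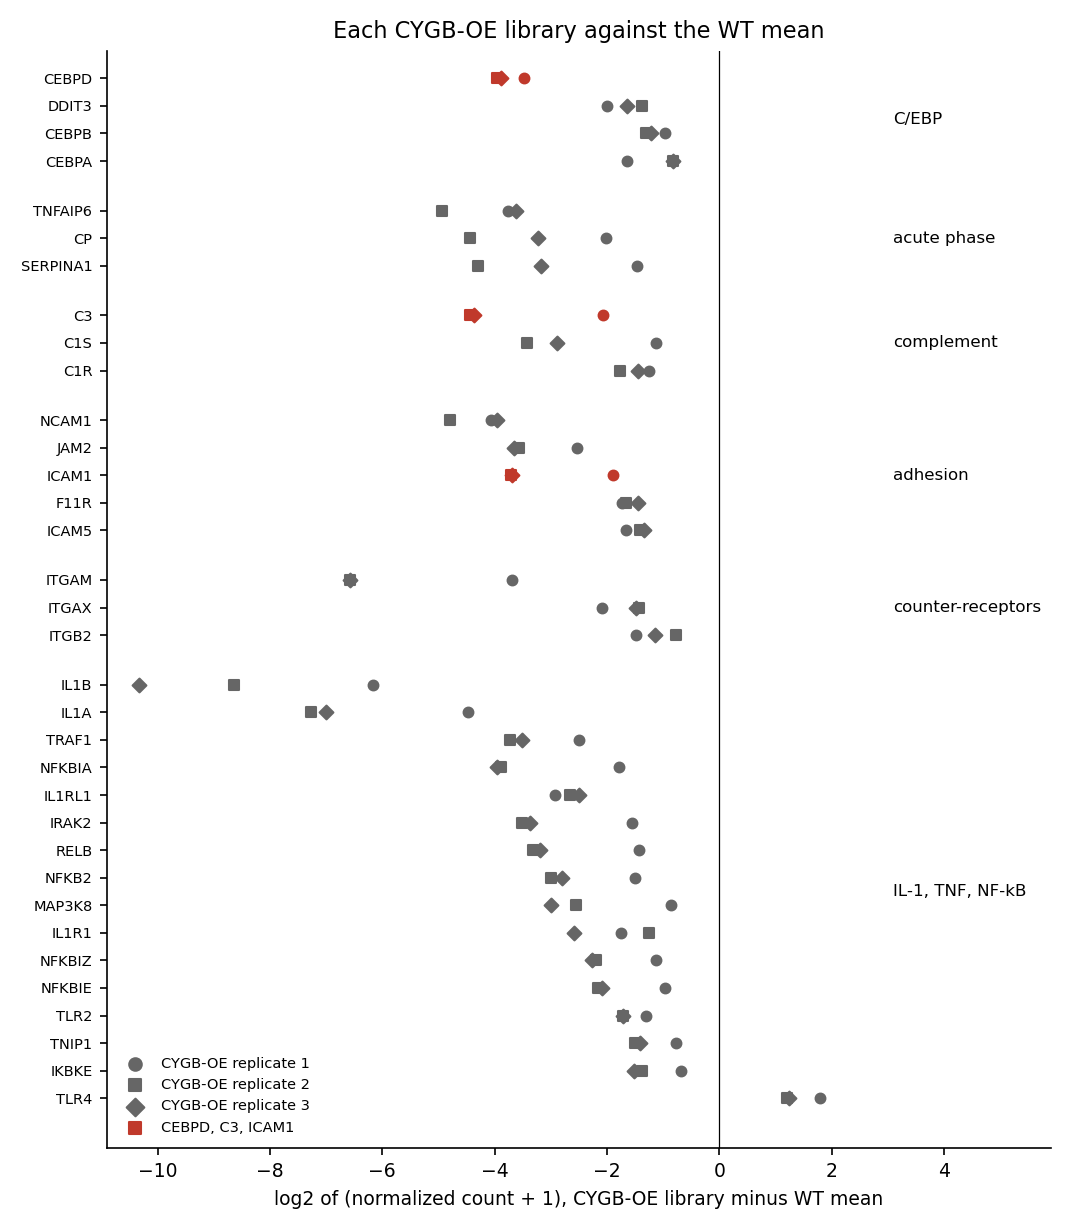
Each row is a gene of a list and each marker a CYGB-OE library, placed by the log2 of its normalized count + 1 minus that of the WT mean; circles are replicate 1, squares replicate 2 and diamonds replicate 3, and CEBPD, C3 and ICAM1 are red. Circles lie to the right of the squares and diamonds for C3, ICAM1 and most genes of interleukin 1, TNF and NF-kB signalling, and TLR4 is the gene to the right of 0.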

How the data were processed

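RNA of 6 A375 libraries was sequenced. The authors deposited raw counts, 1 column per library. The submitters' processing notes name Trimmomatic 0.36, STAR 2.5.2b, featureCounts, Subread 1.5.2 and build GRCh38. The sources used here do not give the annotation, the strand setting or the rule that selected the features.

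TMM assumes mostly unchanged features, which these are not. Factors were therefore taken from TMM inside each group, and a log2 ratio of 0 was placed at the middle of the empty band of ratios between the groups. A normalized count is a count divided by its factor. edgeR 4.0.16 in R 4.3.3 (quasi-likelihood F test, two-sided, filterByExpr with minimum count 10, robust, group as the only term, Benjamini-Hochberg over 2465 features tested, threshold 0.05) was fitted to the whole table. An SE is the log2 ratio divided by the square root of F. The fit was also run on simulated data in which most features were unchanged and all libraries had the same spread. The real data differ on both points, so that run does not show how well the fit works here. GENCODE release 29 gave coordinates and lengths, and RefSeq (GRCh38.p14) gave promoter sequences. The alternatives were other scalings, a replicate block, each library left out, DESeq2 1.42.0, no filter and adjustment over all annotated genes.

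The 3 genes and the lists were chosen with earlier results of these data known. Named are CEBPD, C3, ICAM1 and CYGB. Also named are every gene of a list with at most 5 genes in the table and the 4 most abundant of longer lists. So are the 5 genes most alike each of the 3, genes near the 3, and genes said to be chosen after their values were seen. IL6, CNTF, SELE, MMP3 and TYRP1 were named outside these rules. Whether libraries of 1 group are separate cultures is not labelled, so p-values cover only the spread between libraries, and that spread may be technical.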

Additional observations from a re-analysis of the deposited data

How the results depend on the processing

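CEBPD, C3 and ICAM1 stayed lower in CYGB-OE under every alternative that was run. Their log2 ratios were -2.55, -1.96 and -1.62 under TMM over the table, -2.54, -1.94 and -1.60 with DESeq2 size factors and -2.89, -2.30 and -1.96 with upper-quartile factors, and CEBPD stood at -3.41 with total counts. These scalings raised all log2 ratios by 1.20, 1.21, 0.86 and 0.35. Leaving out 1 library at a time gave -3.92 to -3.66 for CEBPD, -4.40 to -2.80 for C3 and -3.70 to -2.52 for ICAM1. Then 694 to 744 features were called higher and 1767 to 1846 lower; of the list genes other than these 3, 9 to 10 were called higher and 62 to 65 lower. Against 1762 features called lower, 465 were called lower under TMM over the table, 462 with DESeq2 size factors and 887 with upper-quartile factors, and against 63 list genes, 20, 20 and 39. Named genes turned positive, under TMM and with DESeq2 size factors, at 0.046 and 0.055 for CEBPB, 0.13 and 0.14 for CEBPA, 0.061 and 0.067 for CSMD1, 0.060 and 0.065 for ITGB2, 0.052 and 0.062 for STAT5A, 0.010 and 0.022 for TNIP1, 0.036 and 0.040 for EGFL7 and 0.090 and 0.098 for S100A1. Adjusted over all 58780 annotated genes, an alternative chosen after seeing the data, 14 of the 52 other named genes lost their calls. Replicate numbers did not pair the libraries: deviations of same-numbered libraries correlated at -0.01, -0.08 and 0.02 across 2110 features, and not every library correlated best with its own number. With the replicate block 696 features were higher and 1763 lower, and CEBPD, C3 and ICAM1 stood at -3.77, -3.65 and -3.12. With selected features and unknown depths, the level between groups limits all these values.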

Other observations

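Markers of other cell types were mostly outside the table. Of 16 myeloid and lymphoid markers only LYZ was in it, with 223, 303 and 341 normalized counts in CYGB-OE replicates 1 to 3, against 55.0, 55.3 and 43.6 in WT replicates 1 to 3. Of 10 fibroblast markers, COL1A2 and COL3A1 were in it, at summed levels of 38.4 to 193 normalized counts in CYGB-OE and 1.10 to 3.95 in WT. COL1A2 had 36.3, 155 and 173 in CYGB-OE, against 0, 3.16 and 2.13 in WT, so CYGB-OE replicate 1 was the lowest of its group. Of 10 endothelial markers, KDR, TIE1 and EGFL7 were in it and fell, as did 71.5% of all features tested. Their summed levels were 229 to 317 in CYGB-OE and 734 to 796 in WT. EGFL7 had a log2 ratio of -1.16, or 0.036 with TMM over the table, where KDR alone kept its call. Of 10 hepatocyte markers only SERPINA1 was in it. The part of these features in the results for CEBPD, C3 and ICAM1 was not tested.

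The table held 6 of 15 melanocyte and melanoma markers. The 5 that could be tested fell, as did 71.5% of all features tested. The median log2 ratio of these 5 was -1.50, against -1.30 for all features tested. Of the 5 markers, 4 stayed below 0 under TMM over the table, where only CSPG4 kept its call. CSPG4, the melanoma chondroitin sulfate proteoglycan, had 13875, 14509 and 15461 normalized counts in CYGB-OE replicates 1 to 3, against 53752, 51334 and 56242 in WT replicates 1 to 3 (log2 ratio -1.88). S100A1, a calcium-binding protein, had 2199.5, 1939.7 and 1923 in CYGB-OE, against 4191, 4639 and 4253 in WT (log2 ratio -1.11, or 0.090 with TMM). EDNRB, an endothelin receptor, had a log2 ratio of -1.50 and RAB38, a GTPase of melanosome transport, one of -1.42, and both calls were lost with TMM. CYGB-OE replicate 1 was the highest library of its group in 4 of the 5 that fell, CSPG4 being the exception, against 34.4% of all lower features. Its log2 ratio over the mean of replicates 2 and 3 was 0.19 for S100A1, 0.20 for EDNRB and 0.38 for RAB38. For TYRP1, which had few counts, it was 1.61. For C3 and ICAM1 it was 2.34 and 1.82.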
